A study of Homo sapiens with 15 samples.

Results

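Small RNA in HDM samples of DiFi cells was compared with small RNA in cell pellets of the same numbered collections, HF6 and HF7. The rule for choosing libraries took 4 HDM libraries (filtered HF6 and HF7, unfiltered HF6 and HF7) and 2 cell pellet libraries (HF6 and HF7), which makes 6 of the 15 samples of the series. DiFi is an established human colorectal cancer cell line, and all 6 libraries come from it; the labels name no treatment or genotype that separates them. HDM and HF are not spelled out in the labels, which do not say either how the filtering was done or whether the cultures behind equal HF numbers are the same. The stated purpose of the series is to try culture conditions for collecting carriers of secreted small RNA, and its title names supermeres, extracellular nanoparticles without a membrane. The comparison asks how the miRNA content of HDM differs from that of the pelleted cells, over every miRNA with enough counts. Plate cells (6 libraries) stay out of the main fit. They give a range beside a result, define the less abundant arm of each hairpin and enter 1 alternative fit. The labels also name HDM media, regular media and HDM media without cells, 1 sample each; the last of these was not analysed here, so no value below has a background from medium subtracted or set beside it.

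The HDM libraries held 2479939 (filtered HF6), 1712723 (filtered HF7), 2256505 (unfiltered HF6) and 205738 (unfiltered HF7) counts, and the pellets 3829742 (HF6) and 313380 (HF7). Levels are given in CPM, a count divided by its library's size. A floor of 3 counts corresponds to 1.21 to 14.6 CPM in HDM, and to 0.783 and 9.57 CPM in the pellets, so the HF7 unfiltered library and the HF7 pellet resolve scarce miRNAs poorly. Of 1619 entries in the table, 444 passed the filter on low counts and held 99.9% of the counts of these libraries. A scarce miRNA could pass it on HDM libraries alone or on pellets alone. This can tilt counts of calls among scarce miRNAs, which was not tested. Across 220 abundant miRNAs the correlation of log2 CPM lay between 0.985 and 0.997 within HDM, was 0.952 between the pellets, and lay between 0.865 and 0.909 across HDM and pellets. Here the points are miRNAs, not replicates. The table holds no spiked-in RNA, so folds compare shares within libraries, and a larger share of a miRNA cannot be told apart from a smaller share of others. No source says that replicates are separate cultures, so p-values reflect no more than the spread among these 6 libraries, which may be technical. Values of single libraries are TMM-normalised CPM, listed for HDM as filtered HF6, filtered HF7, unfiltered HF6 and unfiltered HF7, and for pellets as HF6 and HF7.

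A miRNA is cut from a hairpin transcript by Drosha and then Dicer, and usually the strand from 1 arm (5p or 3p) is kept in an Argonaute protein while the other is degraded. The bases next to the 5′ end, called the seed, pair with target transcripts and define miRNA families. Outside cells miRNAs are found in vesicles, bound to Argonaute and in particles without a membrane, and the miRNA content of such carriers is known to differ from that of the cells that release them.

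The mature sequences of the largest changes are shown first, from RefSeq (GRCh38.p14), with bases 2 to 8, the seed, in capitals. All 394 tested miRNAs with a RefSeq mature sequence have the sequence the authors deposited. The 6 largest increases in HDM among abundant miRNAs have 6 different seeds.
miR-1247-5p: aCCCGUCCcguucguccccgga
miR-592: uUGUGUCAauaugcgaugaugu
miR-4521: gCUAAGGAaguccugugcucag
miR-92a-1-5p: aGGUUGGGaucgguugcaaugcu
miR-29b-1-5p: gCUGGUUUcauauggugguuuaga
miR-155-5p: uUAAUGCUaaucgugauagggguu
The largest decreases likewise share no seed, and the first of them, miR-146a-5p, has the largest absolute fold of all miRNAs named here by abundance.
miR-146a-5p: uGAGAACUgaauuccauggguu
miR-210-3p: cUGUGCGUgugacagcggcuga
miR-99b-5p: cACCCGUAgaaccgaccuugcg
miR-1246: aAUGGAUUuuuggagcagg
miR-32-5p: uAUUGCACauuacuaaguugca
miR-12136: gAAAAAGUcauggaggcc
The next set is shown because members that share a seed stood apart in HDM relative to pellets. miR-32-5p, above, was lower while miR-92a-3p and miR-25-3p, with the same seed AUUGCAC, were not called.
miR-92a-3p: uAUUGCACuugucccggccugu
miR-25-3p: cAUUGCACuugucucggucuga
The same held for miR-27a-3p beside miR-27b-3p, for miR-29c-3p beside miR-29a-3p, and for miR-125a-5p beside miR-125b-5p.
miR-27a-3p: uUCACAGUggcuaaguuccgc
miR-27b-3p: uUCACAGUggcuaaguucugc
miR-29c-3p: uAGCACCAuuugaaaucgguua
miR-29a-3p: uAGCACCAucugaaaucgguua
miR-125a-5p: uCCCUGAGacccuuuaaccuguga
miR-125b-5p: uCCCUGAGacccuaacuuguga
The last set completes both arms of 4 hairpins whose arm balance shifted in HDM, miR-194, miR-32, miR-27a and miR-23b.
miR-194-5p: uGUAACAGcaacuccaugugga
miR-194-3p: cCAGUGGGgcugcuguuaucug
miR-32-3p: cAAUUUAGugugugugauauuu
miR-27a-5p: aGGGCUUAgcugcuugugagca
miR-23b-5p: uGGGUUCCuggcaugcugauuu
miR-23b-3p: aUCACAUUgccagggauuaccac

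In HDM, some scarcer hairpin arms, such as miR-92a-1-5p, and most tested entries of the CLCN5 cluster on chromosome X were relatively higher. miR-146a-5p, miR-210-3p, miR-141-3p and the miR-99b cluster were relatively lower. Relative to its partner, the less abundant arm was called up for 33 of 120 hairpins (27.5%) and down for 13 (10.8%). The low-count filter can tilt these counts. edgeR called 156 of 444 miRNAs (35.1%) at a Benjamini-Hochberg adjusted p under 0.05, 71 higher (16.0%) and 85 lower (19.1%) in HDM. The 4 HDM and 2 pellet libraries did not overlap for 237 miRNAs (53.4%), 122 of them higher in HDM (27.5%) and 115 lower (25.9%). The median log2 fold over all 444 was 0.07. With total counts as the only scaling that median moved to 0.52, and the calls became 135 higher and 57 lower. No called miRNA changed its sign under that scaling. The count of calls was 86 without the filtered HF7 library, 85 without the unfiltered HF6 library, and 274 without the HF7 pellet. Of the 156 called miRNAs, 62 were called in every alternative that tested them, 27 of them higher and 35 lower; 46 of the 62 were tested in all 20.

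**Figure D1:**
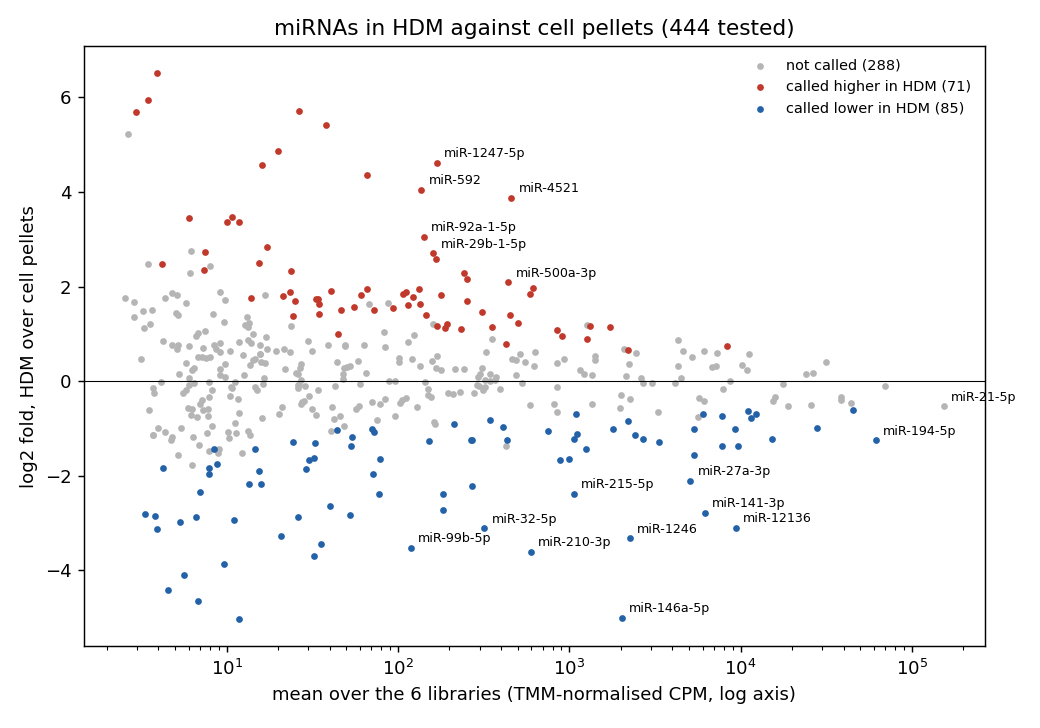
Log2 fold of HDM over cell pellets (vertical axis) against the mean over the 6 libraries in TMM-normalised CPM (log axis) for the 444 tested miRNAs. Red points are the 71 called higher in HDM, blue points the 85 called lower and grey points the 288 not called; miR-146a-5p at -5.0 and miR-1247-5p at 4.62 stand far from 0 at 100 CPM or more.

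Among miRNAs with at least 100 CPM in HDM or pellets, miR-1247-5p had the largest increase. It lies on chromosome 14, 101560362 to 101560383 (minus strand), within an exon of the long noncoding RNA gene DIO3OS in the imprinted DLK1-DIO3 region. Its level was 237, 262, 293 and 192 CPM in HDM, against 9.0 and 14.5 CPM in pellets. Every HDM library was more than 10 times above either pellet, and plate cells held between 25 and 37.3 CPM, below all 4 HDM libraries. The log2 fold was 4.62 ± 0.41 (SE; edgeR adjusted p = 4.02e-05), with 4.80 from the HF6 libraries and 3.91 from the HF7 libraries. miR-592, from an intron of the glutamate receptor gene GRM8, had 225, 210.1, 154 and 205 CPM in HDM, against 11.1 and 14.5 CPM in pellets. Its log2 fold was 4.05 ± 0.37 (adjusted p = 4.39e-05), and plate cells ranged between 7.27 and 426 CPM, on both sides of HDM. In the fit that includes the plate libraries miR-592 was not called (adjusted p = 0.0836), while it passed in 19 of 20 alternatives.

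miR-4521, which lies on chromosome 17, 8186948 to 8186969 (plus strand) with no other annotated gene on that strand, had 677, 814, 602 and 589.9 CPM in HDM, against 65.1 and 7.23 CPM in pellets. The groups did not overlap, yet the pellets stood far apart, on 188 and 2 counts. Its log2 fold of 3.87 ± 0.53 (adjusted p = 0.000564) became 6.51 without the HF6 pellet. Plate cells held between 469.9 and 774 CPM, the same range as HDM, so the low values belonged to the pellets among the cell collections. miR-92a-1-5p is the scarcer arm of a hairpin in MIR17HG, the host transcript of the growth-promoting miR-17-92 cluster. It had 211, 206, 145 and 244 CPM in HDM, against 23.2 and 25.3 CPM in pellets, a log2 fold of 3.05 ± 0.36. miR-29b-1-5p, the scarcer arm of a miR-29 hairpin within LINC-PINT, had 242, 206, 206 and 248 CPM in HDM, against 38.4 and 25.3 CPM in pellets. Both were between 6.51-fold and 8.30-fold higher in HDM, with no overlap of HDM and pellets. Plate cells lay in between for miR-29b-1-5p, at 75.8 to 144 CPM. For miR-92a-1-5p they held 88.9 to 191 CPM, above both pellets but reaching above the unfiltered HF6 library.

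miR-155-5p, an immune-cell and tumour miRNA from the MIR155HG transcript, had 211, 235, 194 and 274 CPM in HDM, against 28 and 57.9 CPM in pellets. This is a log2 fold of 2.59 ± 0.38 (adjusted p = 0.000881), and all 4 HDM libraries also lay above the plate range of 23.8 to 96.4 CPM. miR-552-3p, first known from colorectal tumours, had 156, 183, 103 and 145 CPM in HDM, against 38.4 and 39.8 CPM in pellets, with plates at most at 61.7 CPM. The log2 fold of miR-552-3p was 1.87 ± 0.31. Further increases of the arm that is scarcer on plates were miR-130b-5p at 2.28 ± 0.38, miR-194-3p at 2.17 ± 0.41 and miR-25-5p at 1.85 ± 0.33. miR-500a-3p, miR-501-5p and miR-501-3p, from 1 cluster in an intron of the chloride channel gene CLCN5, stood at 2.09 ± 0.28, 1.96 ± 0.34 and 1.81 ± 0.28. miR-500a-3p, miR-501-3p and miR-502-3p lie within 1 mismatch of a neighbour among them, so their reads could have been split between entries. Of the 15 largest increases, all but miR-592 (as noted), miR-1248 and miR-12135 were called in every alternative.

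miR-1248 and miR-12135 were less firm. miR-1248 overlaps the small nucleolar RNA SNORA81 in an exon of EIF4A2, and had 938, 1030.1, 688 and 663 CPM in HDM, against 357 and 28.9 CPM in pellets, with 1030 and 8 pellet counts. Its log2 fold was 1.96 ± 0.65 (adjusted p = 0.0383); it was 4.81 without the HF6 pellet and 1.21 without the HF7 pellet, and the call was lost without the filtered HF7 (log2 fold 1.98) or the unfiltered HF6 (1.98) library. It kept its call in 14 of 20 alternatives. miR-12135, within an intron of NEO1, had 783, 1074, 629 and 598 CPM in HDM, against 105 and 336 CPM in pellets, but plates held 897 to 2058 CPM, as much as HDM or more. Its log2 fold of 1.85 ± 0.44 was 1.17 without the HF6 pellet and 2.86 without the HF7 pellet.

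The decrease of miR-146a-5p in HDM was the largest among abundant miRNAs. This miRNA, a feedback inhibitor of innate immune signalling, lies on chromosome 5, 160485372 to 160485393 (plus strand) in an exon of MIR3142HG. Its level was 113, 94.1, 357 and 244 CPM in HDM, against 6929 and 4440.3 CPM in pellets. It was thus 32.0-fold lower in HDM (log2 fold -5.0 ± 0.27, adjusted p = 2.95e-06), and plate cells lay between, from 432 to 3044 CPM. Both filtered libraries were below both unfiltered ones, with log2 folds over pellets of -5.78 for filtered and -4.22 for unfiltered HDM; filtered against unfiltered did not pass over all miRNAs (adjusted p = 0.103). miR-210-3p, the hypoxia-induced miRNA, lies on chromosome 11, 568112 to 568133 (minus strand) in MIR210HG. It had 78.0, 101, 169.9 and 184 CPM in HDM, against 1817 and 1233 CPM in pellets, a log2 fold of -3.61 ± 0.25 (adjusted p = 1.61e-05). The groups did not overlap, but the plate range of 92.2 to 903 CPM reached down into the HDM values.

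miR-99b-5p, miR-125a-5p and let-7e-5p, 3 miRNAs of 1 cluster in an intron of SPACA6 on chromosome 19, were all lower. miR-99b-5p had 24, 33.6, 26.5 and 21.4 CPM in HDM, against 367 and 239 CPM in pellets, with a log2 fold of -3.52 ± 0.30. miR-125a-5p had 70.8, 49.9, 75.2 and 59.8 CPM in HDM, against 562 and 286 CPM in pellets, with a log2 fold of -2.73 ± 0.32. let-7e-5p, within 1 mismatch of the far more abundant let-7a-5p, had 47.9, 28.6, 35.1 and 42.7 CPM in HDM, against 204 and 72.3 CPM in pellets. Its log2 fold of -1.96 ± 0.40 was -0.94 without the HF6 pellet, while the calls of all 3 held in all 20 alternatives.

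miR-32-5p is encoded on chromosome 9 inside TMEM245, in an intron, and had 58.8, 52.7, 151 and 124 CPM in HDM, against 652 and 879 CPM in pellets. It was 8.63-fold lower in HDM (log2 fold -3.11 ± 0.24, adjusted p = 2.46e-05), and every plate library, between 164 and 577 CPM, was above every HDM library. miR-141-3p, an epithelial miRNA of the miR-200 family, had 1055, 1390.3, 3809 and 2975 CPM in HDM, against 15386 and 12590.5 CPM in pellets. Its log2 fold was -2.78 ± 0.22, with -3.52 for filtered and -2.04 for unfiltered HDM. miR-215-5p, of intestinal epithelium, had 453, 486, 398 and 449 CPM in HDM, against 2141 and 2484 CPM in pellets. Its log2 fold was -2.38 ± 0.21, almost equal in the HF6 (-2.33) and HF7 (-2.41) libraries. miR-29c-3p stood at -2.22 ± 0.23, miR-27a-3p at -2.11 ± 0.23 and miR-338-3p, from an intron of AATK, at -2.39 ± 0.28. miR-126-3p, typical of endothelium, stood at -2.83 ± 0.34 on 3 to 67 counts per HDM library, against 300 and 40 counts in pellets.

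Of the 15 largest decreases, 3 are entries whose sequence overlaps other RNA classes. miR-1246, which matches the sequence of a spliceosomal RNA, U2, had 649, 535, 557 and 517 CPM in HDM, against 3374 and 7883 CPM in pellets. It was 9.95-fold lower in HDM (log2 fold -3.31 ± 0.31, adjusted p = 5.23e-05), and the plates ranged between 189.6 and 2861 CPM. miR-12136, an entry on chromosome 1, 632668 to 632685 (minus strand) where sequence resembles the mitochondrial genome, had 1206, 1627, 4319 and 5049 CPM in HDM, against 38242 and 5767 CPM in pellets. The HF7 pellet was close to the unfiltered HDM libraries, and its log2 fold of -3.10 ± 0.53 was -1.17 without the HF6 pellet. miR-3609 had 65.0, 75.6, 83.0 and 89.8 CPM in HDM, against 682 and 101 CPM in pellets, and its log2 fold of -2.39 ± 0.53 was -0.40 and not called (adjusted p = 0.348) without the HF6 pellet. Without that library its decrease therefore did not pass.

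**Figure D2:**
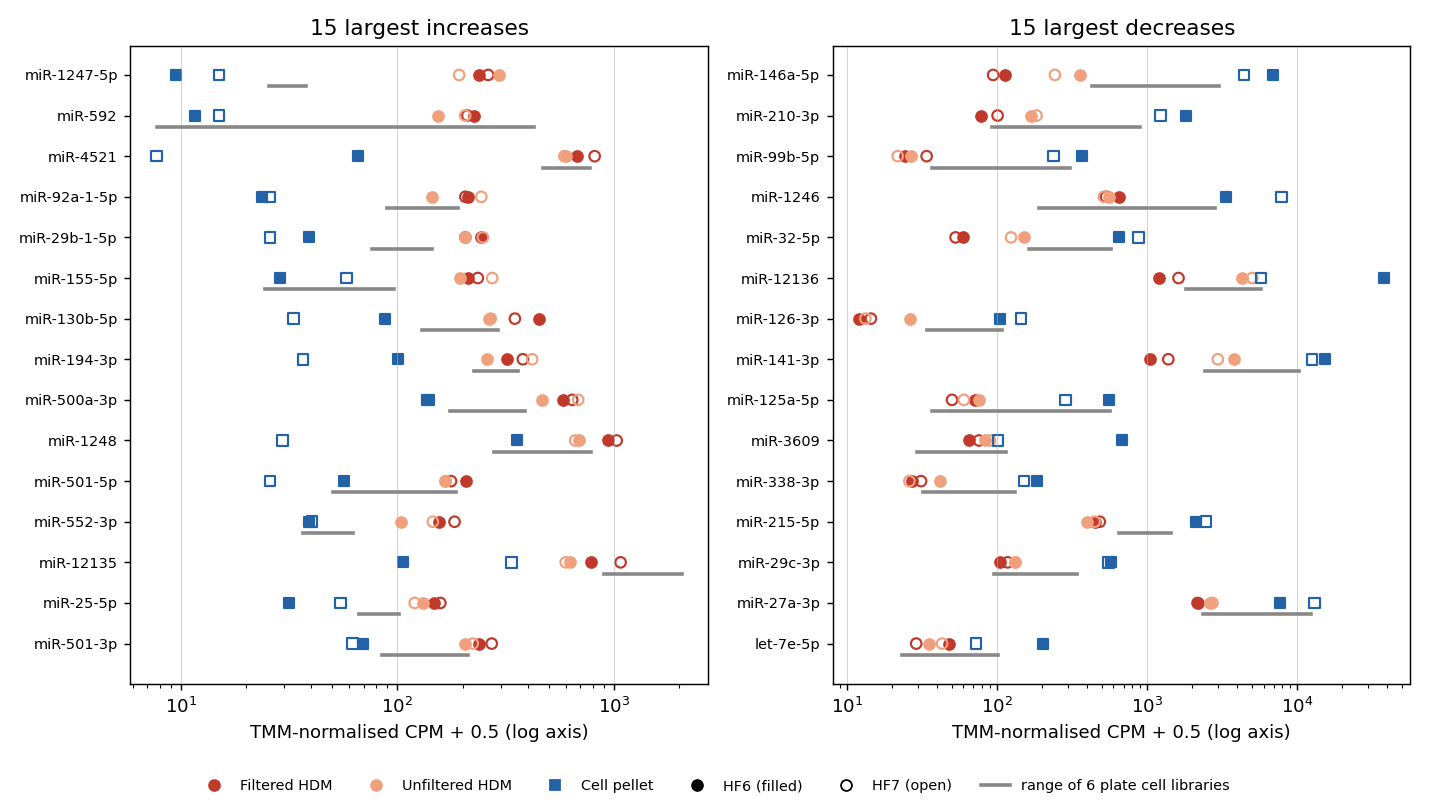
TMM-normalised CPM + 0.5 (log axis) in each of the 4 HDM libraries (circles) and 2 cell pellets (squares) for the 15 called miRNAs furthest up and the 15 furthest down in HDM that reach 100 CPM in HDM or pellets, with a grey bar for the range of the 6 plate cell libraries. No overlap of HDM and pellets was a condition for choosing these 30, so it is not a result of the figure. The plate range of miR-4521 lies at the HDM level and that of miR-146a-5p lies between HDM and the pellets.

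Members that share a seed had different folds in several families. In the family with seed AUUGCAC, miR-32-5p stood at -3.11 ± 0.24, whereas miR-92a-3p stood at 0.40 ± 0.20 and miR-25-3p at 0.52 ± 0.22, neither called. With seed UCACAGU, miR-27a-3p was lower at -2.11 ± 0.23 and miR-27b-3p was not called at 0.24 ± 0.24. These are within 1 mismatch of each other, so reads could have been split between them. In the miR-29 family (AGCACCA) miR-29c-3p was lower at -2.22 ± 0.23, miR-29b-3p at -1.05 ± 0.21, and miR-29a-3p, within 1 mismatch of miR-29c-3p, was not called at 0.18 ± 0.20. The miR-29b-3p call was lost without filtered HF6 (-0.99) or unfiltered HF7 (-0.96). miR-125a-5p was lower and miR-125b-5p, with the same seed CCCUGAG, was not called at 0.46 ± 0.24 (adjusted p = 0.16). With seed UGACCUA, miR-215-5p was lower at -2.38 ± 0.21 and miR-192-5p at -0.62 ± 0.18. Other families were closer: the 6 tested members with seed AAAGUGC had log2 folds from 0.32 to 1.22, none called, and the 5 with seed GUAAACA from -1.37 to -0.42, with 3 lower. Differences between members of a family were not tested.

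The miR-200 family holds epithelial identity by repressing ZEB1 and ZEB2. Of its 9 tested entries, 5 were lower in HDM and none higher, with a median log2 fold of -0.99, against 19.1% lower and a median of 0.07 over all tested. miR-200b-3p, the most abundant, had 69395, 74936, 60189 and 69116 CPM in HDM, against 73794 and 72788 CPM in pellets, and was not called at -0.10 ± 0.19. miR-200a-3p, named after its values were seen, had 21025, 22377, 22469 and 18331 CPM in HDM, against 45581 and 38054 CPM in pellets, and was lower at -0.99 ± 0.19, a call lost without unfiltered HF7 (-0.87). miR-429 was lower at -1.23 ± 0.23, miR-141-3p as above, and miR-200c-3p, whose pellets stood at 69729 and 22519.7 CPM, was not called at -0.40 ± 0.36. Without the HF6 pellet miR-200c-3p stood at 0.63, and without the HF7 pellet it passed at -0.99. With total counts as the scaling 4 of the 9 were lower, the median was -0.55, and miR-200b-3p and miR-200c-3p had positive folds of 0.33 and 0.09.

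miR-192, miR-194 and miR-215, which come from 2 clusters and mark gut epithelium, had 4 of 6 entries lower and 1 higher (median -0.93), against 19.1% lower and 16.0% higher over all tested. miR-194-5p had 36686, 43778, 49103 and 39389 CPM in HDM, against 113723 and 86944 CPM in pellets, and was lower at -1.25 ± 0.21 (adjusted p = 0.00154). miR-192-5p had 38441, 43542, 37284 and 35144 CPM in HDM, against 62146 and 56241 CPM in pellets. It was lower by a log2 fold of -0.62 ± 0.18 (adjusted p = 0.0255), a call kept in 12 of 20 alternatives and lost on leaving out any 1 HDM library, with log2 folds then from -0.65 to -0.53. miR-194-3p, the scarcer arm of the miR-194 hairpin, was the member that rose. The cluster of miR-182, miR-96 and miR-183, known from sensory organs and raised in many carcinomas, had 3 of 6 lower and none higher (median -0.54), against the same 19.1% and 16.0%. These were the 3 major arms: miR-96-5p with a log2 fold of -1.67 ± 0.26, miR-182-5p with -1.37 ± 0.21 and miR-183-5p with -1.15 ± 0.22.

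The miR-30 family, abundant in differentiated epithelium, had 4 of 9 lower and none higher (median -0.78). The shares of 19.1% lower and 16.0% higher over all 444 also stand beside this list and each list that follows. miR-30d-5p stood at -0.52 ± 0.20 and was not called, while miR-30e-5p had 4798, 5594, 8435 and 6857 CPM in HDM, against 19506 and 12996 CPM in pellets, and was lower at -1.37 ± 0.22. Total-count scaling left 1 of the 9 lower. The let-7 family, regulators of growth and differentiation, had 1 of 18 higher and 2 lower (median -0.11, and 0.38 with total counts). let-7a-5p had 31799.7, 24006, 18911 and 25469.7 CPM in HDM, against 25956 and 19034 CPM in pellets, a log2 fold of 0.15 ± 0.24. let-7f-5p had 42086, 36809.9, 28018 and 36097 CPM in HDM, against 43605 and 45864 CPM in pellets, a log2 fold of -0.33 ± 0.20. Neither passed, and the 2 lower members were the scarce let-7e-5p and let-7i-3p. let-7i-3p, at -1.02 ± 0.32, kept its call in 7 of 20 alternatives and lost it on leaving out any 1 HDM library (log2 folds from -1.03 to -0.97).

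In the miR-99, miR-100 and miR-125 group 3 of 7 were lower and none higher (median -0.85). miR-99a-5p was lower at -0.85 ± 0.20, a call lost on leaving out any 1 HDM library (log2 folds from -0.83 to -0.76), beside the members on chromosome 19 described above. miR-100-5p was scarce at 6, 2, 14 and 0 counts in HDM, against 18 and 2 counts in pellets, and was not called at -1.15 ± 0.67. In the miR-148 and miR-152 family 3 of 5 were lower and 1 higher (median -0.63), with miR-148a-3p at -0.63 ± 0.21. The miR-29 family had 1 of 7 higher and 2 lower (median -0.15), the miR-15 and miR-16 family 1 of 8 lower (median -0.42) and the miR-26 family 1 of 5 higher and 1 lower (median -0.34). miR-16-5p, an inhibitor of cyclins, was lower at -0.79 ± 0.20, and miR-26b-5p at -0.73 ± 0.23. The calls of miR-16-5p and miR-26b-5p were lost on leaving out any 1 HDM library, with log2 folds from -0.84 to -0.65 and from -0.74 to -0.67; without the HF6 pellet miR-26b-5p stood at -0.34, not called.

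The oncogenic miR-17-92 cluster had 1 of 11 higher and none lower (median 0.40): its abundant arms miR-92a-3p and miR-20a-5p stood at 0.40 ± 0.20 and 0.57 ± 0.22, not called, and the call was miR-92a-1-5p. Total-count scaling made 8 of the 11 higher. In its relative, the miR-106b, miR-93 and miR-25 cluster within MCM7, 2 of 6 were higher (median 0.46), both scarcer arms: miR-93-3p at 1.18 ± 0.27 and miR-25-5p. The miR-93-3p call was lost without filtered HF6 (1.17) or filtered HF7 (1.22). The clusters of miR-23, miR-27 and miR-24 had 4 of 11 higher and 2 lower (median 0.24). miR-24-3p was lower at -1.02 ± 0.23 (lost without the unfiltered HF7 library, at -0.87) and miR-23b-3p higher at 0.75 ± 0.22. The miR-23b-3p call was kept in 14 of 20 alternatives and lost on leaving out any 1 HDM library (log2 folds from 0.75 to 0.80). In the miR-181 family 2 of 9 were higher and 2 lower (median 0.41), with miR-181a-5p at 0.07 ± 0.21. The miR-130 and miR-301 family had 1 of 6 in each direction, and miR-320 with miR-484, made without Drosha, 1 of 5 in each. miR-484 was higher at 1.23 ± 0.24, from 686, 607, 554 and 633 CPM in HDM, against 262 and 264 CPM in pellets.

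miR-221 and miR-222, growth-promoting miRNAs of 1 X-linked cluster, had none of 4 called. miR-221-3p had 7724, 7522, 6593 and 7148 CPM in HDM, against 8443 and 3243 CPM in pellets, so that the HF6 pellet lay above and the HF7 pellet below all HDM libraries. The HOX-cluster miR-10 family had none of 3 called, with miR-10a-5p at -0.42 ± 0.20. In these lists no call says that members were equal in HDM and pellets, since the standard errors of the 7 members ran from 0.20 to 0.43.

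The CLCN5 cluster on chromosome X was mostly higher. Of its 14 tested entries, 9 were higher in HDM and none lower, with a median log2 fold of 1.17, against 16.0% higher over all tested. With total-count scaling 11 were higher and the median was 1.65. miR-532-5p, an abundant member, had 1668, 1560.0, 1217 and 1552 CPM in HDM, against 583 and 1049 CPM in pellets, and was higher at 0.88 ± 0.29, a call kept in 11 of 20 alternatives. It was lost on leaving out any 1 HDM library (0.87 to 1.02) and without the HF6 pellet (0.50). miR-502-3p, at 632, 646, 505 and 509 CPM in HDM, against 228 and 202 CPM in pellets, was higher at 1.40 ± 0.24 and passed in all 20. miR-660-5p was higher at 0.96 ± 0.23, kept in 15 of 20 alternatives and lost without filtered HF7 (0.90), unfiltered HF6 (1.02) or unfiltered HF7 (0.99). miR-362-5p was not called at 1.19 ± 0.46: its HDM libraries were close together, at 1404 to 1642 CPM, and its pellets far apart, at 1094 and 257 CPM. The fold also varied within a hairpin, since miR-362-3p stood at 0.24 ± 0.27.

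**Figure D3:**
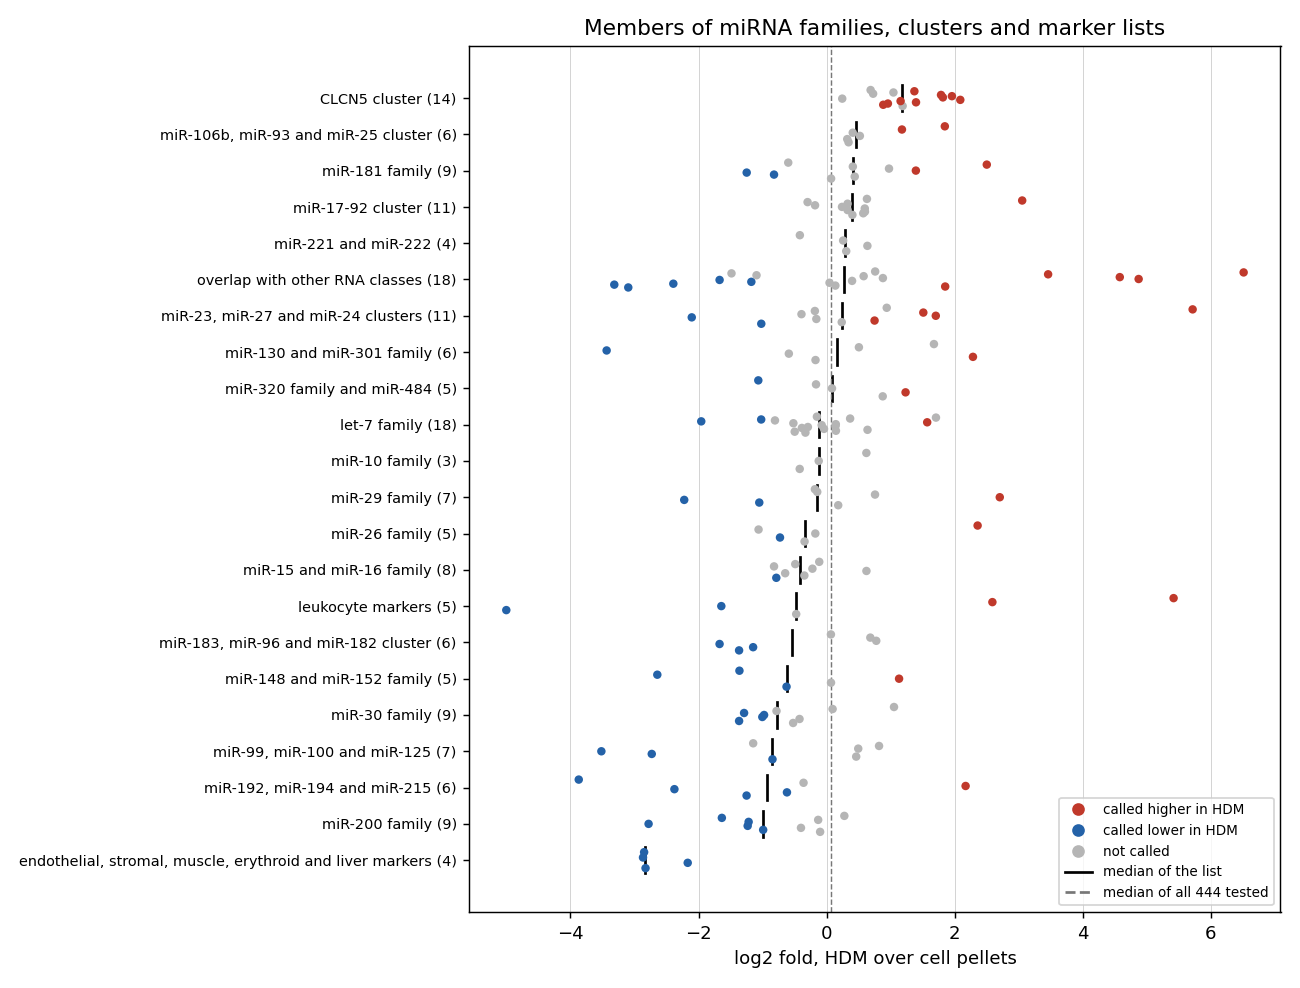
Log2 fold of HDM over cell pellets for each tested member of 22 lists of related or marker miRNAs, with the number tested in brackets. Points are single miRNAs, red where called higher in HDM, blue where called lower; the black bar is the list's median and the dashed line the median of all 444 (0.07). The CLCN5 cluster has the highest median (1.17) and the endothelial, stromal, muscle, erythroid and liver markers the lowest (-2.84).

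Markers of the labelled tissue were abundant in all libraries. The summed level of 9 colorectal epithelial miRNAs was 235276 to 249659 CPM of the total counts in HDM, against 273830 and 311882 CPM in the pellets, with miR-31-5p at 0 to 5 counts. Of the 8 that were tested, 6 were lower in HDM and none higher, against 19.1% lower over all tested. Leukocyte markers were also present, at a sum of 1738 to 3575 CPM in HDM, against 6765 and 8003 CPM in pellets, and 2 of their 5 tested members were higher and 2 lower, against 16.0% and 19.1% over all tested. miR-146a-5p was lower as above, and so was miR-142-5p, a blood-cell miRNA, at -1.64 ± 0.21. miR-142-3p was not called at -0.48 ± 0.24, and miR-223-3p had at most 1 count. miR-150-5p, a lymphocyte miRNA, went the other way at 187, 81, 128 and 15 counts in HDM, against 4 and 0 counts in pellets. All 4 HDM libraries, at 45.4 to 67.9 CPM, were above pellets and above plates (0.74 to 4.25 CPM). The ratio of its pooled counts was 44.3, with a 95% interval for counting error alone of 17.2 to 163. HDM media without cells were not analysed here.

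All 4 tested markers of endothelium, muscle and red cells were lower in HDM (median -2.84), against 19.1% lower over all tested. Of these 4, 2 are arms of the same hairpin, miR-126. miR-451a could pass the low-count filter on the pellets alone, so its call is no separate support. miR-126-3p and miR-126-5p, of endothelium, summed to 21.0 to 34.6 CPM in HDM, against 96.6 and 163 CPM in pellets. The miR-126-5p call was lost without filtered HF7 (-2.05) or unfiltered HF6 (-1.56). miR-1-3p, of muscle, had 15, 11, 28 and 1 counts in HDM, against 81 and 28 counts in pellets, with a log2 fold of -2.87 ± 0.57, which was -1.85 without the HF7 pellet. miR-451a, of red cells, had 5, 3, 3 and 0 counts in HDM, against 32 and 2 counts in pellets. Its log2 fold was -2.85 ± 0.62 (adjusted p = 0.0065), and the call was lost without the filtered HF6 (-2.82), filtered HF7 (-2.77) or unfiltered HF6 (-4.73) library. The defining markers miR-486-5p, miR-206, miR-143-3p and miR-214-3p had 0 counts in all 6 libraries, and miR-122-5p, of liver, at most 2 and was not tested. Red-cell markers summed to 0 to 3.23 CPM in HDM, against 11.5 and 19.1 CPM in pellets. The 3 of 5 stromal markers matched by name summed to at most 0.584 CPM in HDM, against at most 0.261 CPM in pellets. That sum leaves out miR-199a-3p, which has a joint entry with miR-199b-3p. The joint entry, also not among the 4 above, was not called at -1.51, with a group mean of at most 18.1 CPM. miR-9-5p, a neural miRNA, was lower at -1.31 ± 0.41, a call kept in 13 of 20 alternatives and lost without filtered HF6 (-1.27), filtered HF7 (-1.18) or unfiltered HF6 (-0.84), although the 2 neural markers summed to 17.5 to 48.6 CPM in HDM, against 38.9 and 47.9 CPM in pellets. The part of these markers in the other results was not tested.

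A list of 18 tested entries that overlap ribosomal, transfer, nucleolar, spliceosomal or mitochondrial-like sequence, which does not hold miR-1248, went both ways. Of these, 5 were higher and 5 lower (median 0.27), against 16.0% and 19.1% over all tested. miR-1268a, miR-1268b and miR-3648, given below, could pass the low-count filter on HDM libraries alone. Their higher calls are therefore no separate support. The lower ones included miR-1246, miR-12136 and miR-3609. Among the higher were miR-1268a, at 59, 41, 66 and 6 counts in HDM, against 3 and 0 counts in pellets, and miR-1268b, at 70, 47, 84 and 8 counts in HDM, against 3 and 0 counts in pellets. Counts of miR-1268a and miR-1268b ran in parallel, and whether they share reads was not tested, so they may not be separate increases. miR-3648, whose sequence lies in ribosomal spacer repeats, had 20, 8, 19 and 1 counts in HDM, against 0 and 0 counts in pellets. With both pellets at 0, its pooled count in HDM was at least 6.90-fold higher against a floor of 3 counts over the group; the call was lost without the unfiltered HF6 library or the HF6 pellet. Leaving these 18 entries out before scaling gave 150 calls, 68 higher and 82 lower.

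Several abundant or often studied miRNAs did not pass. miR-21-5p, abundant in carcinomas, had 117918, 153352, 135328 and 127092 CPM in HDM, against 167970.0 and 218464 CPM in pellets. All HDM libraries were below both pellets, but the log2 fold of -0.53 ± 0.20 did not pass (adjusted p = 0.0676); it passed without the HF6 pellet, at -0.71. miR-125b-5p had 1153, 1090.1, 951 and 915 CPM in HDM, against 871 and 607 CPM in pellets, and also passed without the HF6 pellet, at 0.75. Just inside the threshold were miR-196b-5p at 0.67 ± 0.23, miR-148a-3p at -0.63 ± 0.21 and miR-296-5p at 0.99 ± 0.34, with adjusted p of 0.0417, 0.0438 and 0.0439. Just outside were miR-550a-3p at 1.36 ± 0.48, miR-132-3p at -0.95 ± 0.34 and miR-378a-3p at -0.57 ± 0.21, with adjusted p of 0.0508, 0.0534 and 0.0557. The 3 just inside kept their calls in 10 of 20, 5 of 20 and 7 of 20 alternatives. Leaving out 1 library ended the call of miR-196b-5p for filtered HF6 (0.68), filtered HF7 (0.71), unfiltered HF6 (0.67) or unfiltered HF7 (0.75), that of miR-148a-3p for filtered HF6 (-0.51), filtered HF7 (-0.68), unfiltered HF6 (-0.53), unfiltered HF7 (-0.60) or pellet HF7 (-0.38) and that of miR-296-5p for filtered HF6 (1.02), filtered HF7 (1.04), unfiltered HF6 (1.10), unfiltered HF7 (0.98) or pellet HF6 (1.05), with the log2 fold then left in brackets.

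The balance of the arms of a hairpin can be compared without scaling between libraries, because both arms are counted in the same library. Of 120 hairpins with both arms tested, edgeR called a shift for 46 (38.3%), with the arm that is less abundant in plate cells up in HDM for 33 (27.5%) and down for 13 (10.8%). Libraries did not overlap for 54 (45.0%). The median shift of the less abundant arm was 0.30 on the log2 scale over all 120, with 71 positive. It was 0.65 over the 72 hairpins in which that arm made up under 10% on plates, 52 of them positive, and -0.24 over the other 48, with 19 positive. An arm could pass the low-count filter on HDM libraries alone, and miR-23b-5p had 252 counts in HDM against 2 in pellets. With 4 HDM libraries and 2 pellets, the filter can tilt these counts of shifts towards scarce arms that are high in HDM, which was not tested. The calls fell to 19, 24, 13 and 20 on leaving out the filtered HF6, filtered HF7, unfiltered HF6 or unfiltered HF7 library. Of the 46 called hairpins, 6 were called in every alternative that tested them.

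miR-194 was the clearest of these. miR-194-3p made up 0.862, 0.859, 0.522 and 1.05% in HDM, against 0.0882 and 0.0416% in pellets. Its share was higher in every HDM library than in either pellet, a shift of 3.54 ± 0.29 on the log2 scale, as the major arm fell and the minor arm rose. The deposited locations place miR-194-5p on chromosomes 1 and 11 but miR-194-3p on chromosome 11 alone. The share therefore sets the 3p arm of 1 hairpin against 5p counts that can come from both places, which were not separated. miR-32-3p made up 72.3, 71.3, 44.4 and 49.1% in HDM, against 9.17 and 13.5% in pellets. Its shift was 3.59 ± 0.50, and it came with the lower miR-32-5p, since miR-32-3p itself was not called at 0.47 ± 0.34. miR-27a-5p made up 3.90, 4.52, 3.09 and 3.17% in HDM, against 0.347 and 0.329% in pellets, a shift of 3.46 ± 0.44, with miR-27a-3p lower and miR-27a-5p higher at 1.51 ± 0.34, a call lost without filtered HF7 (1.42). miR-130b, named after its values were seen, was the other hairpin with an upward shift in all 12 alternatives: miR-130b-5p made up 55.1, 49.7, 39.2 and 42.0% in HDM, against 20.5 and 5.92% in pellets.

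miR-23b-5p had 119, 52, 67 and 14 counts in HDM, against 2 and 0 counts in pellets, which is 0.411, 0.307, 0.278 and 0.634% in HDM, against 0.0105 and 0% in pellets of the arms of its hairpin. The ratio of its pooled counts was 54.3, with a 95% interval for counting error alone of 14.9 to 451, and its shift of 5.06 ± 0.73 was called in 11 of 12 alternatives. miR-769-3p made up 5.22, 3.52, 5.33 and 7.35% in HDM, against 0.575 and 0% in pellets, and miR-185-3p 2.59, 1.95, 2.43 and 4.81% in HDM, against 0.409 and 0% in pellets. Their shifts were 3.28 ± 0.80 and 2.73 ± 0.85, called in 10 of 11 and 5 of 11 alternatives. The miR-185 call was lost on leaving out any 1 HDM library (shifts from 2.60 to 3.09) and without the HF6 pellet (5.90).

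In the other direction, again among called hairpins with at least 100 CPM of the more abundant arm, miR-148b-5p made up 0.464, 0.591, 0.71 and 0.521% in HDM, against 4.35 and 2.57% in pellets. Its share was lower in every HDM library, by a shift of -2.64 ± 0.48, called in 11 of 11 alternatives. miR-331-5p made up 10.8, 12.8, 8.83 and 9.84% in HDM, against 20.6 and 62.8% in pellets, and miR-1307-5p 12.5, 10.9, 13.7 and 18.4% in HDM, against 28.3 and 52.9% in pellets, with shifts of -2.17 ± 0.56 and -1.92 ± 0.52. The share of miR-331-5p stood far apart in the pellets. Its shift was called in 6 of 12 alternatives, lost without filtered HF6 (-2.21), unfiltered HF6 (-2.15) or unfiltered HF7 (-2.24), and was -3.88 without the HF6 pellet and -1.18 without the HF7 pellet. That of miR-1307 was called in 8 of 12 and lost without filtered HF6 (-2.03), filtered HF7 (-1.92) or unfiltered HF6 (-1.79). miR-95-5p, miR-339-3p and miR-744-3p had shifts of -2.34 ± 0.66, -1.74 ± 0.50 and -1.48 ± 0.62. These were called in 8 of 11, 6 of 12 and 2 of 11 alternatives, and lost without unfiltered HF6 (-5.50) or unfiltered HF7 (-2.26) for miR-95, and without filtered HF6 (-1.65), unfiltered HF6 (-1.87) or unfiltered HF7 (-1.68) for miR-339. The miR-744 call was lost on leaving out any 1 HDM library or the HF6 pellet, with shifts from -1.79 to -1.06.

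**Figure D4:**
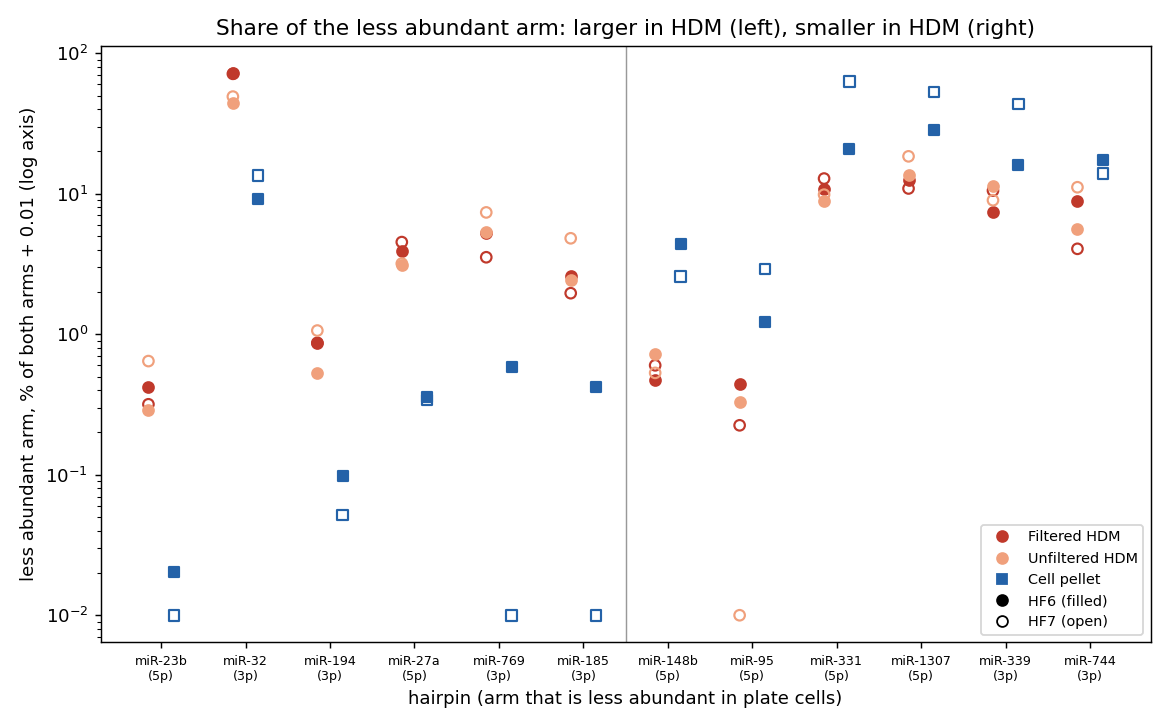
Share of the less abundant arm in the counts of both arms (percent + 0.01, log axis) in the 4 HDM libraries (circles) and 2 cell pellets (squares) for the 6 largest upward and 6 largest downward shifts among called hairpins whose more abundant arm reached 100 CPM in HDM or pellets. miR-32-3p reaches 72.3% in HDM, against 13.5% at most in pellets, while miR-148b-5p stays under 1% in HDM, against 2.57% or more in pellets.

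HDM and pellet miRNAs also differed in base composition. The median GC content of the mature sequence was 54.5% among miRNAs called higher in HDM and 41.7% among those called lower, against 47.8% over all 444. Of the 125 miRNAs with at least 55% GC, 35 were higher in HDM and 11 lower, with a median log2 fold of 0.74. Of the 50 with under 35% GC, 2 were higher and 12 lower, with a median of -0.47. Between these, miRNAs with 35% to under 45% GC had 8 of 118 higher and 36 lower, and those with 45% to under 55% had 26 of 151 in each direction. Scarce miRNAs rich in GC, such as miR-3648 and miR-1268a, could pass the low-count filter on HDM libraries alone. This can tilt the counts and medians of the classes, which was not tested. Across the 444 miRNAs Pearson's correlation of GC content with the log2 fold was 0.39, with 0.40 from the HF6 libraries alone and 0.30 from the HF7 libraries alone. Among the 199 miRNAs with at least 100 CPM it was 0.23. These points share libraries and are not replicates, so no p is given. Median length was 22 bases in the higher, lower and all sets.

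**Figure D5:**
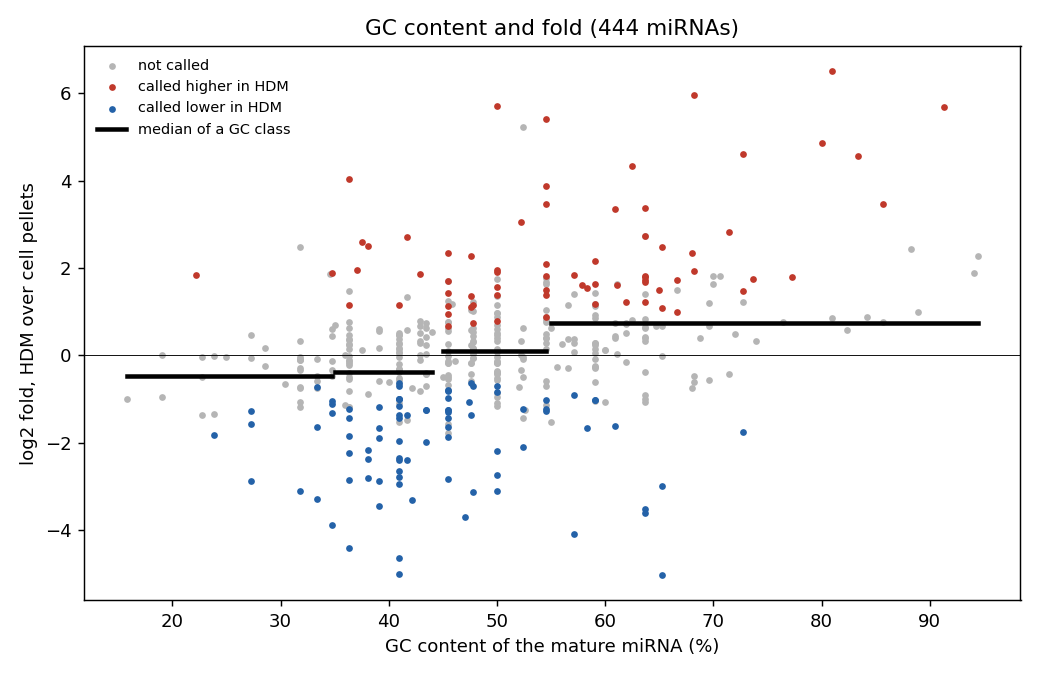
Log2 fold of HDM over cell pellets against GC content (percent) of the mature miRNA for the 444 tested miRNAs, red where called higher in HDM and blue where called lower. Black bars are the medians of 4 GC classes, from -0.47 under 35% GC to 0.74 at 55% or more; the spread within each class is wider than the step between classes.

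The motifs GGAG and CCCU, both known from studies of miRNA sorting into vesicles, were searched as exact letters on the mature strand, and no overlap between them was allowed for. GGAG was in 10 of 71 miRNAs called higher (14.1%) and 4 of 85 called lower (4.71%), against 35 of all 444 (7.88%). CCCU was in 9 (12.7%) and 6 (7.06%), against 43 of all (9.68%). These are counts of letters and no test was made. Both motifs are rich in G and C, and GC content differed between the same sets.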

How the data were processed

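Small RNA of DiFi cells was sequenced in 15 samples; the table used holds 14 sample columns, and 6 of these enter the comparison. The authors deposited 1 table of expected counts per miRNA, in which 4.40% of values are not whole, and these were rounded before use. Per the labels' protocols RNA was extracted with the miRNeasy kit and libraries were made with the NEXTflex small RNA kit. Per the submitters' processing notes cutadapt 2.10, FastQC and Bowtie 1.3.1 were used with the genome build GRCh38; how fractional counts arose, and which miRNA annotation was used, is not given in the sources used here. Locations are those of the deposited table, and host genes come from GENCODE release 29 (GRCh38).

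The main test was edgeR 4.0.16 (R 4.3.3), a quasi-likelihood fit with TMM factors, the low-count filter filterByExpr and 1 coefficient each for filtered HDM, unfiltered HDM and pellets; the contrast was the mean of both HDM coefficients minus pellets, on 3 residual degrees of freedom. Adjusted p is Benjamini-Hochberg over all 444 miRNAs or 120 hairpins, called under 0.05, and SE is the log2 fold divided by the root of F. Arm balance was fitted in edgeR on the counts of both arms, with the less abundant arm taken from plate cells. The fits were tested on simulated data. Alternatives used DESeq2 1.42.0 and limma 3.58.1, other scalings and filters, and each library left out in turn. Intervals of ratios cover counting error only, since no molecular identifiers are stated.

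The miRNAs named are the 15 largest increases and 15 largest decreases among called miRNAs with at least 100 CPM in HDM or pellets and no overlap of libraries, the 6 largest arm shifts each way among called hairpins with at least 100 CPM of the more abundant arm in HDM or pellets, some often studied miRNAs, the 2 most abundant members of each list and the 3 miRNAs on each side of the threshold. Other members named beside a count were chosen after their values were seen. Libraries, lists and tests were chosen with earlier results of these data known. An exact permutation test of 4 against 2 libraries cannot give a p below 0.0667, so none was used.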

Additional observations from a re-analysis of the deposited data

Results flagged for a closer look

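Among the miRNAs chosen by the naming rules above, the HF6 and HF7 libraries went in opposite directions for 6. For these, both HF6 HDM libraries lay on 1 side of the HF6 pellet, and both HF7 HDM libraries on the other side of the HF7 pellet. The remaining tested miRNAs were not examined for this, so 6 is not a count over all tested miRNAs. The HF7 log2 ratio of HDM over pellets minus the HF6 one was 1.64 for miR-200c-3p, 1.42 for miR-221-3p and 0.39 for miR-181a-5p. It was -0.87 for miR-15b-5p, -0.71 for miR-130b-3p and -0.64 for miR-27b-3p. These differences between HF numbers were not tested, and none of the 6 miRNAs was called in HDM against pellets.

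In the 4 HDM libraries 1 library stood apart from the others for 2 miRNAs of those examined: the gap to its neighbour was 0.904 of the range for miR-222-3p and 0.891 for miR-362-5p. Chance alone gives such a gap in about 1 of 20 groups. All tested miRNAs chosen by the naming rules were examined, so these 2 gaps are not read as a result. miR-122-5p, a liver miRNA, had 4 counts in the library labelled HDM media, which enters no comparison here.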

How the results depend on the processing

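Differences of HF6 minus HF7 in log2 CPM correlated at 0.13 (filtered with pellet), 0.13 (unfiltered with pellet) and -0.25 (filtered with unfiltered) over 220 miRNAs. With 1 HF6 and 1 HF7 library per group, these values cannot tell whether equal HF numbers name the same culture. With the replicate block 151 miRNAs were called (72 higher, 79 lower; 147 also called without it) and 40 hairpins. Summing the fractions per HF number gave 112 calls, 46 higher and 66 lower, with 108 of them also called in the main fit. Total-count scaling made 135 higher and 57 lower. Leaving out 1 library gave 85 to 274 calls, 36 to 127 higher and 49 to 147 lower; without both shallow libraries (unfiltered HF7 and the HF7 pellet) there were 271, 121 and 150. For arm balance, limma with 0.5 added called 27 (20 up, 7 down), limma with 5 added 7 (5 up, 2 down), a minimum of 50 counts of each arm 23 (18 up, 5 down of 68), and summed fractions 25 (20 up, 5 down). Leaving out 1 library gave 13 to 62 shifts, 11 to 43 up and 2 to 19 down; without both shallow libraries there were 69, with 48 up and 21 down.

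Among named miRNAs, 839 values of called ones kept direction and call under an alternative, 94 lost the call and 0 reversed. Of uncalled ones 24 reversed. With total counts miR-200c-3p stood at 0.093, miR-200b-3p at 0.33, let-7f-5p at 0.10, miR-15b-5p at 0.057, miR-26a-5p at 0.10, miR-10a-5p at 0.020, miR-10a-3p at 0.33 and miR-130b-3p at 0.25. Leaving out 1 library moved some on both sides of 0, with the HF7 pellet out at 1 end and the HF6 pellet out at the other: miR-200c-3p from -0.99 to 0.63, let-7a-5p from -0.055 to 0.38, miR-221-3p from -0.21 to 1.15 and miR-181a-5p from -0.093 to 0.27. The HF6 pellet out gave the low end and the HF7 pellet out the high end for miR-15b-5p (-0.72 to 0.15), miR-27b-3p (-0.088 to 0.65) and miR-130b-3p (-0.45 to 0.17). Without both shallow libraries let-7a-5p stood at -0.18, miR-15b-5p at 0.12, miR-221-3p at -0.25, miR-181a-5p at -0.080 and miR-130b-3p at 0.18. let-7a-5p was -0.020 with unfiltered HDM alone, miR-200b-3p 0.0015 with no low-count filter, and miR-148b-3p -0.11 with summed fractions and -0.050 with filtered HDM alone. The cause was not tested. Depth limits scarce miRNAs most in the unfiltered HF7 library and the HF7 pellet.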
